A study of Homo sapiens with 24 samples.

Results

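Nucleotides for RNA, DNA and energy metabolism are made from small precursors or recovered from bases and nucleosides. The 33 genes described here encode enzymes of those routes and 1 transporter. They were taken from a list of gene symbols, and all 33 were found among the 35587 symbols of each deposited table. By role they were 2 phosphoribosyl pyrophosphate (PRPP) synthetases, 6 enzymes of the de novo purine ring, 4 that turn inosine monophosphate (IMP) into AMP and GMP, 5 of de novo pyrimidine and CTP synthesis, 2 nucleotide kinases, 5 of deoxynucleotide production, 8 of salvage and uptake, and SAMHD1, which hydrolyses deoxynucleoside triphosphates.

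The series profiled mRNA of MOLM14 and OCI-AML2, established human acute myeloid leukaemia cell lines, after 24 h with DMSO, AZ2 or ARM165. DMSO is the solvent control. The 6 groups are MOLM14 with DMSO, MOLM14 with AZ2, MOLM14 with ARM165, OCI-AML2 with DMSO, OCI-AML2 with AZ2 and OCI-AML2 with ARM165, each of 4 libraries, 24 in all. The series title names a degrader, a molecule with 2 binding ends that marks a protein for destruction, aimed at PI3K gamma and AKT signalling. The labels state neither which compound is that degrader, nor any dose, nor whether the 4 libraries of a group are biological replicates, so the p-values rest on a spread between libraries that may be technical only. No genotype beyond the line is labelled.

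Purine synthesis builds the ring step by step on PRPP, a sugar phosphate that pyrimidine synthesis and base salvage also consume, and ends at IMP, from which AMP and GMP are made. Pyrimidine synthesis builds the ring first, attaches it to PRPP and yields UMP and then CTP. Ribonucleotide reductase turns ribonucleotides into deoxynucleotides, and TYMS makes the thymidine nucleotide from dUMP with a folate cofactor. Dividing cells, leukaemia cells among them, draw on these routes for DNA, and several drugs used in leukaemia act on them or pass through the salvage enzymes.

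The libraries held between 35.4 M and 59.0 M estimated reads. In MOLM14 every AZ2 library (36.1 M to 38.7 M) held fewer than every DMSO library (44.8 M to 59.0 M). The part of this depth difference in the AZ2 comparison was not tested. Values are normalized estimated reads per gene symbol, without correction for gene length, so levels are not compared between genes. The lines were scaled in separate tables, so levels are not compared between lines either, and each change is measured against the rest of the library. Deposited totals were 38.7 M ± 1.74 with ARM165 and 44.2 M ± 0.742 with DMSO in MOLM14 (SD, n = 4). Of 10 myeloid markers, all 10 reached a group mean of at least 10 in MOLM14 with DMSO and 9 did in OCI-AML2. With ARM165, the summed level of these markers ran from 39011 to 45623 in MOLM14, against 60090.0 to 63440.1 with DMSO. In OCI-AML2 it ran from 56380 to 58173, against 100151 to 107974. Of 15 markers of other blood, epithelial, stromal and endothelial cells, 6 and 5 reached 10 with DMSO, chiefly NCAM1 and PECAM1. Their sum ran from 5166 to 5883 with ARM165 and from 5111 to 5385 with DMSO in MOLM14, and from 939 to 1028 and from 1841 to 2099.8 in OCI-AML2. The part of these shifts and totals in the results was not tested. In bulk libraries, fewer cells that express a gene and less of its RNA per cell cannot be told apart.

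The stretches of upstream DNA below are examples from the 30 members that fell with ARM165 in both lines, and were not chosen by a set rule. They come from RefSeq promoter windows (GRCh38.p14, 250 bases before to 50 after a transcript start), which were found for 31 of the 33 genes as 44 windows, and only bases outside annotated exons are printed. PPAT and PAICS, the first and a later enzyme of purine synthesis, lie head to head with annotated starts 126 bases apart (GENCODE 29), and the stretch between them is printed on the strand of PPAT. RRM1 encodes the large subunit of ribonucleotide reductase, SLC29A1 a nucleoside transporter, and NME1 a nucleoside diphosphate kinase. Capitals mark any of 4 words searched on both strands: the E-box CACGTG, the E2F-type words TTCCCGC and TTGGCGC, and the FOXO-type word GTAAACA, none of which overlap each other here.
PPAT-PAICS, chr4:56435616-56435740, minus strand: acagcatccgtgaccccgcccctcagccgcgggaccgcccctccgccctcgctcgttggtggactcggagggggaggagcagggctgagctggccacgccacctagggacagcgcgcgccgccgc
RRM1, chr11:4094435-4094684, plus strand: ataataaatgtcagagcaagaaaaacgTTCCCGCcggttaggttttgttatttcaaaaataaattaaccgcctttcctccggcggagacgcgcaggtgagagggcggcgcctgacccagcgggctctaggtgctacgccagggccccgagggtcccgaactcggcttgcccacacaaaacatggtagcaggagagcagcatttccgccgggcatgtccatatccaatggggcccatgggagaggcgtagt
SLC29A1, chr6:44219365-44219504, plus strand: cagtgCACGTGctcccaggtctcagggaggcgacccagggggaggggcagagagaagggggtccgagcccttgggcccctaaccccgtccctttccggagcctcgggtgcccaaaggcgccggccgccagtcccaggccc
NME1, chr17:51153309-51153535, plus strand: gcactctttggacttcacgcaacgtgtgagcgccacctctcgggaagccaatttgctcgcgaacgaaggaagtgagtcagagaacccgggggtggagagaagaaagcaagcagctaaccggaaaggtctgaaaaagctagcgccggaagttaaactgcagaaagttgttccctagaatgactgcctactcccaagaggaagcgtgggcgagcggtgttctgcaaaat

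RRM1 carries 1 E2F-type word and SLC29A1 1 E-box in these stretches, and the other printed stretches carry none of the 4 words. Outside the printed bases, the overlapping windows of PPAT and PAICS hold a CACGTG downstream of the PAICS start, and the NME1 window holds 1 downstream of the NME1 start. Over the 44 windows, CACGTG was present in 7 (15.9%), against 7.26% of all 35116 windows in the table. TTCCCGC was present in 10 (22.7% against 6.55%), TTGGCGC in 4 (9.09% against 3.04%) and GTAAACA in 1 (2.27% against 3.42%). These differences in share were not tested, and the windows were not matched for base content. Windows of 1 gene can overlap, as do those of PPAT and PAICS, and a match is a run of letters and not a bound site.

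The first comparison asked what AZ2 did to the 33 genes. No member passed the test with AZ2 in either line: 0 of 33 were called by limma in MOLM14 and 0 of 33 in OCI-AML2. The threshold was an adjusted p of 0.05 over all genes tested. By it, 0% of 15288 genes were called in MOLM14 and 0.111% of 15377 in OCI-AML2. At an unadjusted p under 0.05, 1 member passed in each line, against 899 and 733 of all genes. Median member changes were 0.0037 and -0.038 on the log2 scale, with a median standard error of 0.065 in MOLM14. The single member at that level was SAMHD1 in both lines.

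In MOLM14, SAMHD1 was at 8623, 8937, 9563 and 8732 with DMSO, 8212, 7953, 8305 and 7904 with AZ2 and 4782, 4998, 5303 and 5886 with ARM165. In OCI-AML2 it was at 2999, 3205, 3031 and 3011 with DMSO, 2519, 2533, 2473 and 2734 with AZ2 and 1369, 1589, 1589.8 and 1512 with ARM165. Every AZ2 library lay below every DMSO library of its line, and every ARM165 library lay below both. The AZ2 change was -0.15 ± 0.057 in MOLM14 (adjusted p = 0.787) and -0.26 ± 0.060 in OCI-AML2 (adjusted p = 0.313), so neither passed over all genes. All 4 AZ2 libraries lay below all DMSO libraries for 2 members in MOLM14 (CAD and SAMHD1) and for SAMHD1 alone in OCI-AML2. This pattern held for 2.61% and 1.48% of all genes tested. The 95% intervals of the AZ2 changes differed in width between members. For RRM2 they ran from -0.13 to 0.19 in MOLM14 and -0.21 to 0.11 in OCI-AML2, and for PAICS from -0.21 to 0.087 and -0.17 to 0.090. They were far wider for CDA in MOLM14, from -1.86 to 0.89, and for CTPS2 in OCI-AML2, from -0.58 to 0.65, both genes with low values there.

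**Figure D1:**
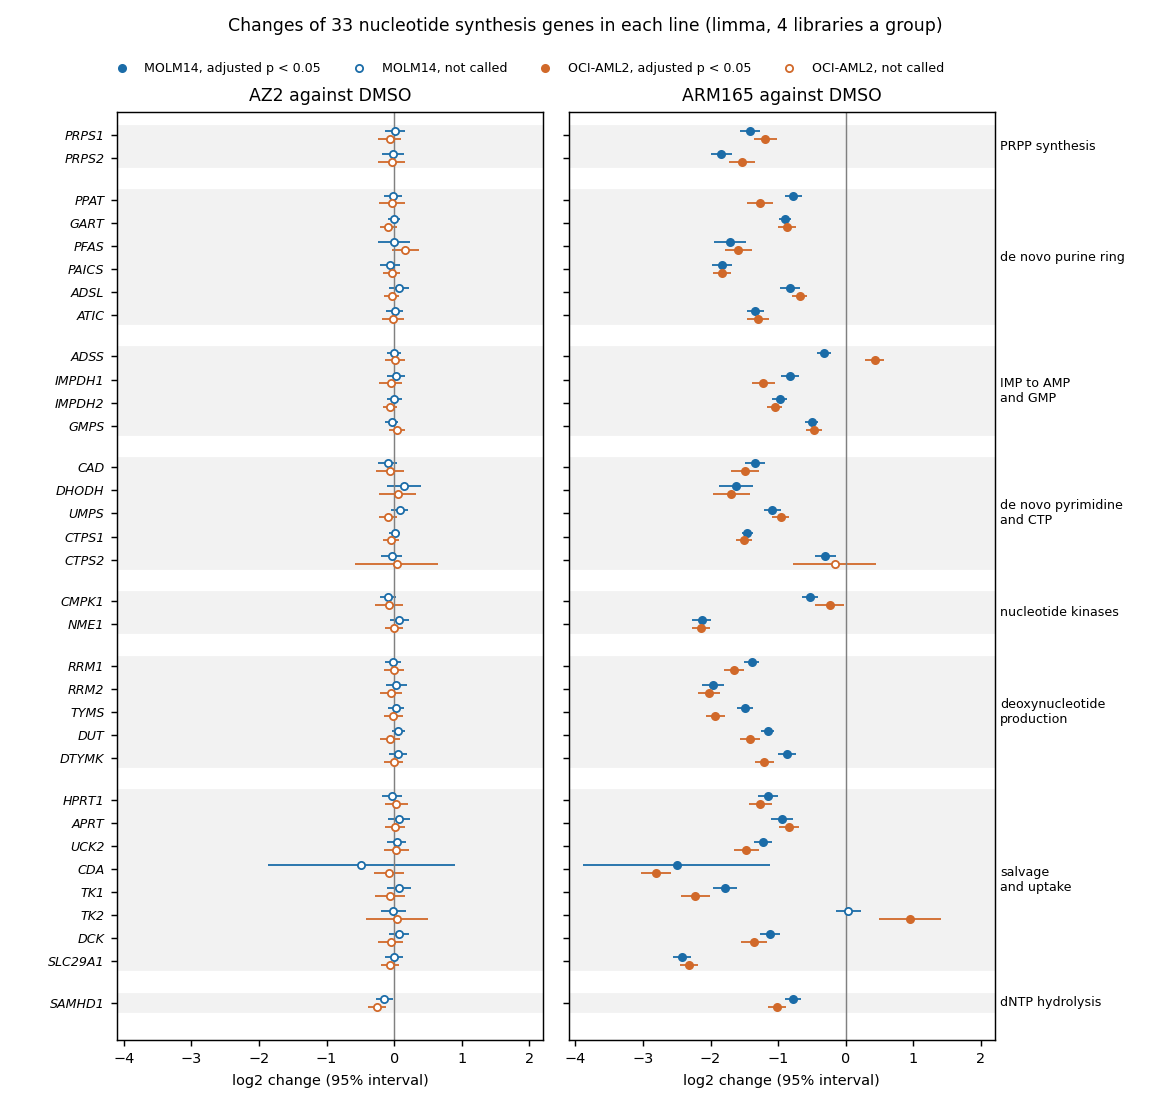
Log2 changes against DMSO (x axis, with 95% intervals from limma, 4 libraries a group) of the 33 genes (y axis, grouped by role), with AZ2 on the left and ARM165 on the right; blue is MOLM14, orange is OCI-AML2, and filled points were called. AZ2 points are all open and most lie near 0, with CDA in MOLM14 at -0.48 and SAMHD1 in OCI-AML2 at -0.26. ARM165 points lie below 0 except for TK2 in both lines and ADSS in OCI-AML2.

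ARM165 lowered nearly all of these genes in both lines. In MOLM14, 32 of the 33 fell, 0 rose and TK2 did not pass, where 34% of all 15288 genes fell, 35.5% rose and 69.5% were called in either direction. In OCI-AML2, 30 fell, 2 rose (ADSS and TK2) and CTPS2 did not pass, where 31.6% of all 15377 genes fell, 34.2% rose and 65.8% were called. The median change of the members was -1.16 in MOLM14 and -1.29 in OCI-AML2, and that of all genes tested was 0.031 and 0.034. A fall of at least 1 on the log2 scale was seen in 20 members in MOLM14 and 24 in OCI-AML2, against 13.0% and 15.4% of all genes. In MOLM14 all 4 ARM165 libraries lay below all 4 DMSO libraries for 32 members, and in OCI-AML2 for 29, against 30.7% and 28.8% of all genes. The members, and the lists of other genes below, were chosen with earlier results of these data known. The contrast with all genes is therefore a description and not an independent test. All 33 passed the filter on low values in both lines. CDA in MOLM14 passed it mainly through the DMSO and AZ2 groups.

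**Figure D2:**
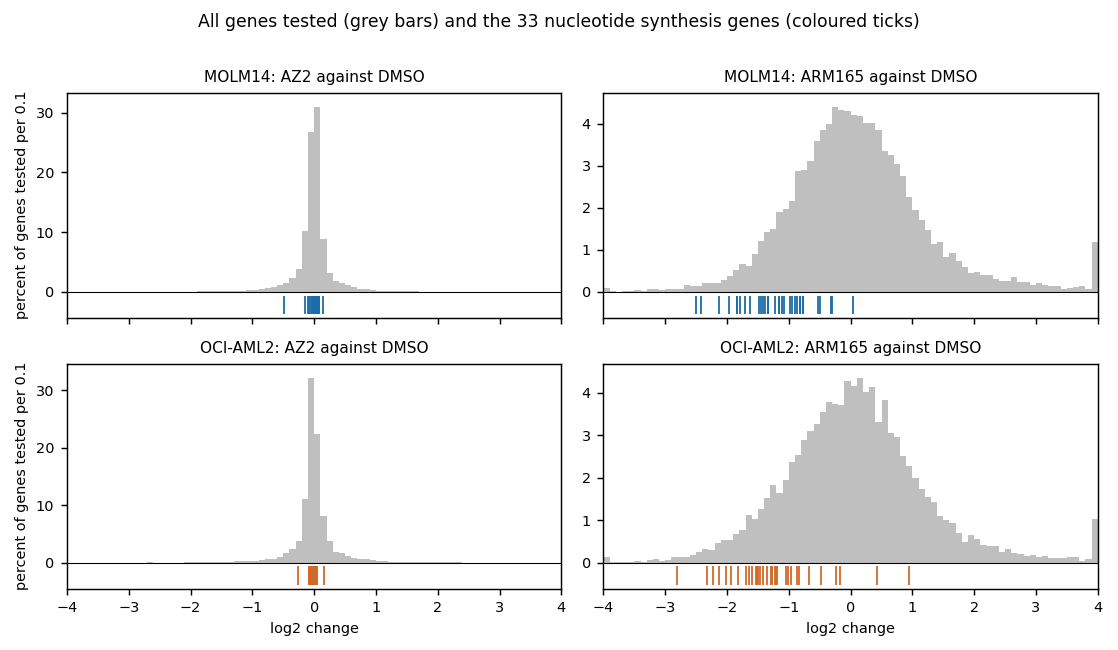
Percent of all genes tested (y axis, grey bars) by log2 change against DMSO (x axis), with AZ2 on the left, ARM165 on the right, MOLM14 above and OCI-AML2 below; coloured ticks are the 33 nucleotide synthesis genes, and the end bins also hold genes beyond the axis. With AZ2 most ticks lie near 0, with CDA in MOLM14 at -0.48, and with ARM165 the medians of the ticks are -1.16 and -1.29.

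Both PRPP synthetases, which make the sugar phosphate that starts purine synthesis, fell in both lines. In MOLM14, PRPS1 was at 3428, 3145, 3455 and 3684 with DMSO, 3686, 3635, 3359 and 3202 with AZ2 and 1126, 1351, 1329 and 1324 with ARM165. OCI-AML2 gave PRPS1 values of 2786, 3023, 2827 and 2540.3 with DMSO, 2412, 2729, 2646 and 2883 with AZ2 and 1139.8, 1345, 1104 and 1312 with ARM165. The ARM165 libraries lay below all others of their line, with changes of -1.42 ± 0.069 in MOLM14 and -1.19 ± 0.080 in OCI-AML2 (adjusted p = 5.70e-11 and 2.57e-09). Its paralog PRPS2 was at 938, 951, 1001 and 1050.1 with DMSO, 1017, 988, 943 and 941 with AZ2 and 251, 291, 262 and 294 with ARM165 in MOLM14. In OCI-AML2, PRPS2 was at 2032, 2098, 1807 and 1953 with DMSO, 1972, 1904, 1694 and 2124 with AZ2 and 628, 637, 654 and 817 with ARM165. Again no ARM165 library reached any other, and the changes were -1.84 ± 0.073 in MOLM14 and -1.53 ± 0.092 in OCI-AML2 (adjusted p = 6.40e-12 and 7.22e-10). Symbols of 2 processed pseudogenes of PRPS1 held up to 7.40% of its level in a library of MOLM14 and 14.5% in OCI-AML2, so part of its reads could be assigned either way.

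All 6 enzymes of the purine ring fell in both lines, with changes from -1.83 to -0.77 in MOLM14 and from -1.83 to -0.68 in OCI-AML2. The largest falls were those of PAICS, which carries out steps in the middle of the route, and PFAS, which adds an amide nitrogen before them. PAICS was at 35654, 34842, 39055 and 34765 with DMSO, 36960.0, 32055, 35469.7 and 33697 with AZ2 and 9895, 8753, 11162 and 10846 with ARM165 in MOLM14. In OCI-AML2, PAICS was at 23163, 26108, 23045 and 22220.1 with DMSO, 22031, 23800.2, 22709 and 23369 with AZ2 and 6265, 6628, 6412 and 7338 with ARM165. PAICS fell by 71.9% in MOLM14 and fell by 71.8% in OCI-AML2 in the fitted means, with changes of -1.83 ± 0.070 in MOLM14 and -1.83 ± 0.060 in OCI-AML2 (adjusted p = 4.64e-12 and 9.25e-13). For PFAS in MOLM14 the values were 1275, 1119, 1166 and 1109 with DMSO, 1168, 1224, 1187 and 1081 with AZ2 and 399.6, 297, 440.3 and 306 with ARM165. For PFAS in OCI-AML2 they were 1457, 1157, 1260.4 and 1411 with DMSO, 1459, 1444, 1596 and 1415 with AZ2 and 422, 497, 449.6 and 383 with ARM165. The ARM165 libraries lay below all others, with changes of -1.71 ± 0.11 in MOLM14 and -1.59 ± 0.093 in OCI-AML2 (adjusted p = 1.57e-09 and 4.98e-10).

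The other purine ring enzymes fell less. PPAT, the committed step, whose upstream stretch is shared with PAICS, went from 1148 ± 42.6 with DMSO to 671 ± 35.6 with ARM165 in MOLM14 (SD, n = 4) and from 819 ± 60.6 with DMSO to 338 ± 21.4 with ARM165 in OCI-AML2. Its changes of -0.77 ± 0.060 in MOLM14 and -1.27 ± 0.091 in OCI-AML2 (adjusted p = 1.35e-08 and 5.16e-09) were smaller than those of PAICS in each line. GART, a trifunctional enzyme, changed by -0.90 ± 0.041 and -0.87 ± 0.062 in MOLM14 and OCI-AML2, ADSL, which acts both in the ring and on the way to AMP, by -0.83 ± 0.068 and -0.68 ± 0.052, and ATIC, which closes the ring, by -1.34 ± 0.057 and -1.29 ± 0.076. The adjusted p of these 3 genes was at most 2.80e-08 in MOLM14 and 1.26e-08 in OCI-AML2.

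Downstream of IMP the guanine branch fell in both lines, while ADSS, the first step towards AMP, moved in opposite directions. ADSS was at 3689.5, 3658, 3917 and 3754 with DMSO, 3922, 3660.0, 3683 and 3697 with AZ2 and 3011, 2919, 2821 and 3269 with ARM165 in MOLM14, where every ARM165 library was below the others. In OCI-AML2, ADSS was at 3921, 4358, 3882 and 3739 with DMSO, 3963, 4006, 4011 and 4046 with AZ2 and 5500.0, 4714, 5290.1 and 5934 with ARM165, with every ARM165 library above the others. The changes were -0.32 ± 0.049 in MOLM14 and 0.43 ± 0.067 in OCI-AML2 (adjusted p = 2.76e-05 and 3.56e-05), so ADSS fell in MOLM14 and rose in OCI-AML2. Of the 2 IMP dehydrogenases, the first step towards GMP, IMPDH1 was at 6275, 6189, 6499.9 and 6654 with DMSO, 6469.9, 6832, 6883 and 5973 with AZ2 and 3286, 3759, 4002 and 3473 with ARM165 in MOLM14. The OCI-AML2 values of IMPDH1 were 5433, 4866, 5485 and 5328 with DMSO, 4692, 4921, 5316 and 5468 with AZ2 and 1929, 2569.9, 2317 and 2267 with ARM165. IMPDH1 fell without overlap, with changes of -0.82 ± 0.062 in MOLM14 and -1.22 ± 0.079 in OCI-AML2 (adjusted p = 8.62e-09 and 1.75e-09). IMPDH2, the isoform usually linked to proliferating cells, was at 17939.7, 16998, 18292 and 17417 with DMSO, 17980.4, 16752, 18491 and 17622 with AZ2 and 8850.4, 8208, 9476 and 9335 with ARM165 in MOLM14. In OCI-AML2, IMPDH2 was at 15872, 16114, 16984 and 15627 with DMSO, 14282, 15332, 15925 and 16145 with AZ2 and 7648, 7625, 8103 and 7757 with ARM165. IMPDH2 fell by 49.3% in MOLM14 and fell by 51.8% in OCI-AML2, with changes of -0.98 ± 0.049 in MOLM14 and -1.05 ± 0.049 in OCI-AML2 (adjusted p = 8.15e-11 and 4.05e-11). GMPS, which completes GMP, went from 13484 ± 185 with DMSO to 9541 ± 587 with ARM165 in MOLM14 and from 19399.5 ± 1169.8 with DMSO to 13987 ± 774 with ARM165 in OCI-AML2 (SD, n = 4), with smaller changes of -0.50 ± 0.045 in MOLM14 and -0.47 ± 0.055 in OCI-AML2 (adjusted p = 7.58e-08 and 1.61e-06).

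De novo pyrimidine synthesis fell as well, with CTPS2 apart from the rest. DHODH, the mitochondrial enzyme of the route, was at 707, 756, 890.2 and 742 with DMSO, 978, 779, 868 and 794 with AZ2 and 280.2, 199, 276 and 253 with ARM165 in MOLM14. The OCI-AML2 values of DHODH were 578, 527, 530.4 and 498 with DMSO, 569, 622, 480.5 and 545 with AZ2 and 198, 131, 183 and 155 with ARM165. Changes of DHODH were -1.62 ± 0.12 in MOLM14 and -1.69 ± 0.13 in OCI-AML2 (adjusted p = 4.82e-09 and 1.12e-08). CTPS1, the CTP synthetase required by dividing lymphocytes, was at 9899, 9608, 9928 and 9278 with DMSO, 9905, 9389, 9444 and 10150.3 with AZ2 and 3426, 3546, 3613 and 3537 with ARM165 in MOLM14. In OCI-AML2, CTPS1 was at 11285, 11622, 11326 and 10202 with DMSO, 10138, 10513, 11568 and 10571 with AZ2 and 4103, 3772, 3878 and 3822 with ARM165. Its ARM165 libraries were tightly grouped and far below the rest, at -1.45 ± 0.040 in MOLM14 and -1.51 ± 0.055 in OCI-AML2 (adjusted p = 1.81e-13 and 2.89e-12). The paralog CTPS2 was at 1713, 1579, 1664 and 1559 with DMSO, 1452, 1626, 1539.9 and 1757 with AZ2 and 1218, 1275, 1294 and 1498 with ARM165 in MOLM14, a smaller shift. In OCI-AML2, CTPS2 was at 47.3, 107, 65.2 and 52.2 with DMSO, 77.5, 73.2, 56.7 and 59.8 with AZ2 and 39.3, 63.3, 52.0 and 84.1 with ARM165, with overlapping groups and low values. CTPS2 changes were -0.30 ± 0.073 in MOLM14 and -0.16 ± 0.29 in OCI-AML2 (adjusted p = 0.00152 and 0.638), so CTPS2 fell in MOLM14 and did not pass in OCI-AML2. CAD, which holds the opening activities of the route, went from 1615 ± 38.8 with DMSO to 639 ± 63.2 with ARM165 in MOLM14 and from 1666 ± 154 with DMSO to 589 ± 29.4 with ARM165 in OCI-AML2 (SD, n = 4), with changes of -1.34 ± 0.067 in MOLM14 and -1.50 ± 0.096 in OCI-AML2 (adjusted p = 8.11e-11 and 1.60e-09). UMPS, which makes UMP, changed by -1.09 ± 0.061 in MOLM14 and -0.96 ± 0.061 in OCI-AML2 (adjusted p = 2.79e-10 and 1.34e-09).

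The 2 kinases differed in size. NME1, which turns nucleoside diphosphates into triphosphates, was at 12764, 11588, 12276 and 12333 with DMSO, 13331, 11837, 13530.2 and 12973 with AZ2 and 2653, 2476, 3084 and 3005 with ARM165 in MOLM14. In OCI-AML2, NME1 was at 16627, 18149, 18001 and 16647 with DMSO, 15573, 17111, 17895 and 18575 with AZ2 and 3677, 3948, 4229 and 3927 with ARM165. NME1 fell by 77.2% in MOLM14 and fell by 77.3% in OCI-AML2, with changes of -2.13 ± 0.066 in MOLM14 and -2.14 ± 0.061 in OCI-AML2 (adjusted p = 5.85e-13 and 1.98e-13). The readthrough transcript NME1-NME2, which overlaps NME1 on the same strand and can share its reads, changed by -2.24 ± 0.21 and -2.10 ± 0.18 in MOLM14 and OCI-AML2. CMPK1, which phosphorylates UMP and CMP, was at 3435, 3245, 3615 and 3643 with DMSO, 3488, 3152, 3255 and 3207 with AZ2 and 2313, 2347, 2337 and 2670.1 with ARM165 in MOLM14, where the ARM165 libraries lay below the rest. In OCI-AML2, CMPK1 was at 2266, 2843, 2101 and 2249 with DMSO, 2334, 2278, 2059 and 2257 with AZ2 and 2006, 1714, 1967 and 2324 with ARM165, with overlap between groups. CMPK1 changes were -0.53 ± 0.057 in MOLM14 and -0.24 ± 0.098 in OCI-AML2 (adjusted p = 6.11e-07 and 0.0438). The OCI-AML2 call was lost in 13 of 21 alternative settings, among them 9 of 12 cases with a library left out (adjusted p up to 0.154, without DMSO replicate 2).

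All 5 genes of deoxynucleotide production fell in both lines, from -1.96 to -0.86 in MOLM14 and from -2.02 to -1.20 in OCI-AML2. RRM2, the small subunit of ribonucleotide reductase that peaks in S phase, was at 5186, 4970.4, 5284 and 5000.4 with DMSO, 5181, 4809.5, 5678 and 5271 with AZ2 and 1223, 1247, 1571 and 1232 with ARM165 in MOLM14. In OCI-AML2, RRM2 was at 5267, 5552, 4837 and 4846 with DMSO, 4776, 5308, 5009 and 4733 with AZ2 and 1131, 1177, 1404 and 1362 with ARM165. RRM2 fell by 74.3% in MOLM14 and fell by 75.3% in OCI-AML2, with changes of -1.96 ± 0.074 in MOLM14 and -2.02 ± 0.075 in OCI-AML2 (adjusted p = 4.01e-12 and 3.58e-12). RRM1, the large subunit, was at 2666, 2575, 2749 and 2637 with DMSO, 2806, 2483, 2631 and 2594 with AZ2 and 959.7, 981, 1013 and 1093 with ARM165 in MOLM14. In OCI-AML2, RRM1 was at 2619, 2937, 2603 and 2402 with DMSO, 2587, 2647, 2621 and 2656 with AZ2 and 804, 798, 836 and 922 with ARM165. RRM1 changed by -1.39 ± 0.054 in MOLM14 and -1.65 ± 0.068 in OCI-AML2 (adjusted p = 4.97e-12 and 9.41e-12), with no overlap. TYMS, thymidylate synthase, was at 15189, 14432, 14542 and 13871 with DMSO, 15476, 13940.5, 14926 and 14887 with AZ2 and 4920.0, 4690.5, 5585 and 5523 with ARM165 in MOLM14. In OCI-AML2, TYMS was at 20496, 23043, 22139.8 and 19130.4 with DMSO, 19785, 20742, 20854 and 22606 with AZ2 and 5289, 5271, 5560.1 and 6148 with ARM165. Its changes were -1.49 ± 0.057 in MOLM14 and -1.93 ± 0.067 in OCI-AML2 (adjusted p = 4.26e-12 and 1.74e-12). ENOSF1, which overlaps TYMS on the opposite strand, changed by -0.18 ± 0.089 and -0.058 ± 0.067 in MOLM14 and OCI-AML2 and did not pass in either line. DUT, which removes dUTP, changed by -1.16 ± 0.045 in MOLM14 and -1.42 ± 0.069 in OCI-AML2 (adjusted p = 4.99e-12 and 6.41e-11). DTYMK, which phosphorylates the TYMS product, changed by -0.86 ± 0.062 in MOLM14 and -1.20 ± 0.065 in OCI-AML2 (adjusted p = 5.33e-09 and 1.96e-10).

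**Figure D3:**
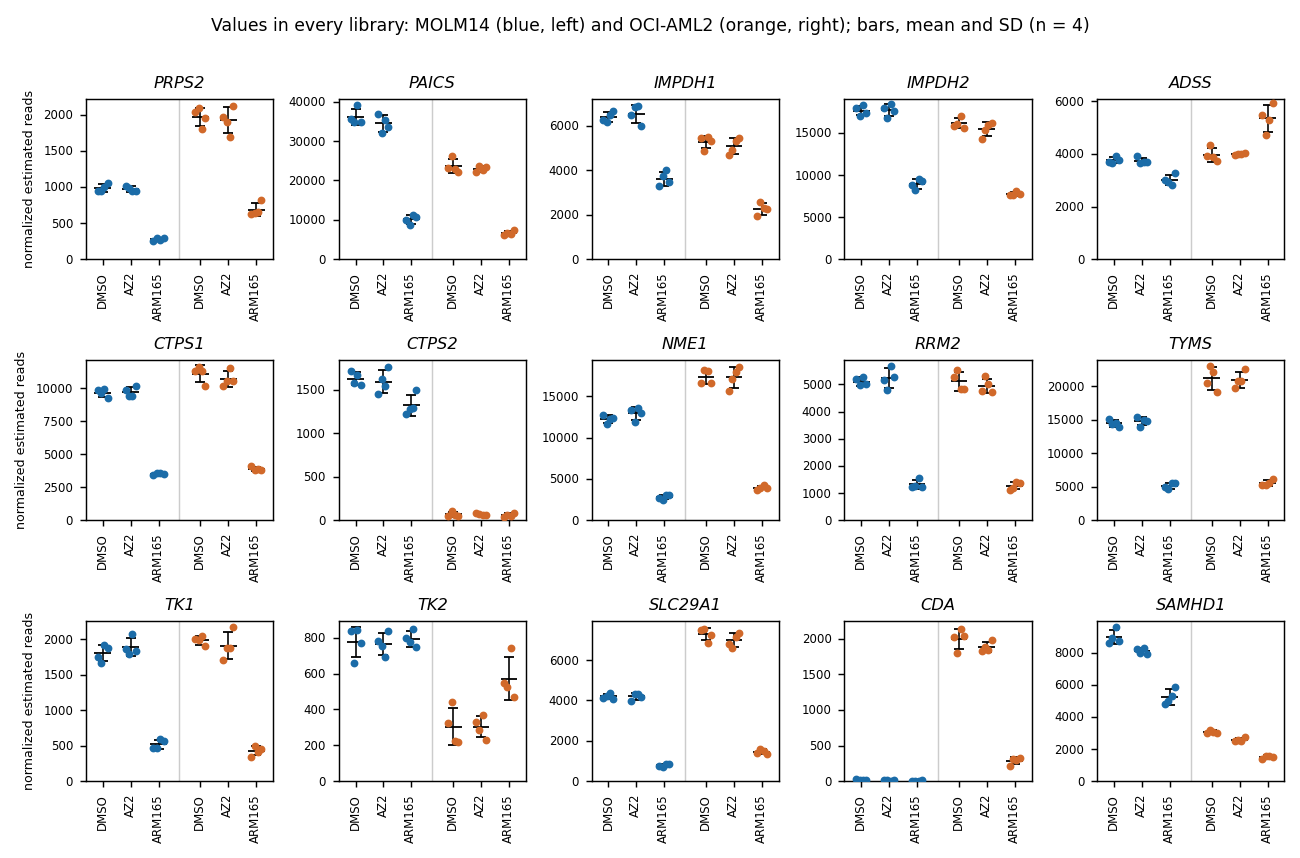
Normalized estimated reads (y axis, linear from 0) of 15 members in each of the 24 libraries (points), by treatment (x axis), MOLM14 in blue on the left and OCI-AML2 in orange on the right of each panel, with bars at the group mean and SD (n = 4); the lines are scaled separately and are not compared in level. ARM165 points lie below the others of their line in most panels; they overlap others for CDA and TK2 in MOLM14 and for CTPS2 in both lines, and lie above the others for TK2 and ADSS in OCI-AML2.

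Salvage and uptake held both the largest falls and the second rise. SLC29A1, which encodes ENT1, the transporter that also carries cytarabine into cells, was at 4127, 4219, 4379 and 4065 with DMSO, 3957, 4332, 4321 and 4182 with AZ2 and 743, 701, 859 and 827 with ARM165 in MOLM14. In OCI-AML2, SLC29A1 was at 7482, 7563, 6869.6 and 7228 with DMSO, 6806, 6609.9, 7167 and 7353 with AZ2 and 1379, 1617, 1481 and 1366 with ARM165. Each ARM165 library was far below every other, with changes of -2.43 ± 0.062 in MOLM14 and -2.32 ± 0.062 in OCI-AML2 (adjusted p = 8.63e-14 and 8.57e-14). CDA, the cytidine deaminase that inactivates cytarabine, was at 27.5, 20.4, 13.9 and 19.1 with DMSO, 11.8, 19.9, 8.01 and 18.9 with AZ2 and 0, 2.19, 4.01 and 10.2 with ARM165 in MOLM14. With values this low, the MOLM14 change of -2.50 ± 0.65 (adjusted p = 0.00283) depends on the pseudocount of 1 (-1.56 with 5), and ARM165 and AZ2 libraries overlap. In OCI-AML2, CDA was at 2019, 1804, 2144 and 2037 with DMSO, 1829, 1885, 1848 and 1988 with AZ2 and 219, 311, 299.6 and 321 with ARM165. There it fell by 85.7% in the fitted means, a change of -2.81 ± 0.10 (adjusted p = 3.44e-12).

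The thymidine kinases moved apart. TK1, the cytosolic enzyme of S phase, was at 1748, 1669, 1920.5 and 1871 with DMSO, 1867, 1790.1, 2073 and 1828 with AZ2 and 468, 471, 591 and 559 with ARM165 in MOLM14. In OCI-AML2, TK1 was at 2001, 1984, 2038 and 1900.0 with DMSO, 1702, 1881, 1878 and 2165 with AZ2 and 342, 497, 415 and 455 with ARM165. TK1 fell in both lines, at -1.79 ± 0.082 in MOLM14 and -2.22 ± 0.10 in OCI-AML2 (adjusted p = 3.16e-11 and 3.16e-11). TK2, the mitochondrial enzyme, was at 835, 658, 840.3 and 769 with DMSO, 781, 751, 691 and 838 with AZ2 and 797, 773, 849 and 746 with ARM165 in MOLM14, where the groups overlapped. In OCI-AML2, TK2 was at 326, 440.5, 226 and 220.4 with DMSO, 329, 285, 368 and 231 with AZ2 and 545, 526, 743 and 469.6 with ARM165, with every ARM165 library above the others. Changes of TK2 were 0.034 ± 0.087 in MOLM14 and 0.95 ± 0.21 in OCI-AML2 (adjusted p = 0.739 and 0.00104), so TK2 rose in OCI-AML2 and did not pass in MOLM14. The other salvage enzymes fell in both lines. HPRT1, which salvages hypoxanthine and guanine, changed by -1.15 ± 0.067 in MOLM14 and -1.26 ± 0.080 in OCI-AML2 (adjusted p = 4.72e-10 and 1.25e-09). APRT, which salvages adenine, changed by -0.95 ± 0.076 and -0.84 ± 0.068 in MOLM14 and OCI-AML2, UCK2, a uridine and cytidine kinase, by -1.22 ± 0.065 and -1.47 ± 0.085, and DCK, the deoxycytidine kinase that activates cytarabine, by -1.11 ± 0.069 and -1.36 ± 0.088. The adjusted p of these 3 genes was at most 2.33e-08. MOB1B, which overlaps DCK on the same strand, changed the other way, by 0.75 ± 0.085 in MOLM14 and 0.93 ± 0.14 in OCI-AML2 (adjusted p = 1.13e-06 and 2.70e-05).

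SAMHD1, which breaks down deoxynucleotides, fell with ARM165 in both lines, to the per-library values given above. Its changes were -0.78 ± 0.057 in MOLM14 and -1.02 ± 0.060 in OCI-AML2 (adjusted p = 7.17e-09 and 6.04e-10).

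ARM165 was also compared with AZ2 directly. Their doses are not stated, so the difference belongs to these treatments as applied. In MOLM14, 32 members were lower with ARM165 than with AZ2, 0 were higher and 1 did not pass, where 34% of all genes were lower, 36.1% higher and 70.1% called. In OCI-AML2, 29 were lower, 2 were higher (ADSS and TK2) and 2 did not pass (CTPS2 and CMPK1), where 31.4% of all genes were lower, 34.5% higher and 65.8% called. Median differences were -1.22 and -1.29. For SAMHD1, whose AZ2 and DMSO libraries did not overlap in either line, the difference was -0.63 ± 0.057 in MOLM14 and -0.76 ± 0.060 in OCI-AML2 (adjusted p = 8.02e-08 and 1.81e-08). This comparison shares its ARM165 libraries with the one against DMSO.

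The last comparison asked whether the lines responded differently. For AZ2, 0 of 33 differences passed by limma, where 0.028% of 14287 genes were called and 746 had an unadjusted p under 0.05. For ARM165, 11 of 33 members differed between the lines, where 42.4% of 14287 genes did. The difference, OCI-AML2 minus MOLM14, was above 0 for 3 members (24.3% of all genes were called above 0) and below 0 for 8 (18.1% of all genes). Above 0 were TK2 at 0.91 ± 0.25, ADSS at 0.75 ± 0.083 and PRPS2 at 0.31 ± 0.12 (adjusted p = 0.00430, 9.87e-08 and 0.0363). TK2 and ADSS had risen with ARM165 in OCI-AML2, and PRPS2 fell in both lines, less in OCI-AML2.

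Below 0, meaning a larger fall in OCI-AML2, were 4 of the 5 genes of deoxynucleotide production: TYMS at -0.44 ± 0.091, DTYMK at -0.34 ± 0.091, DUT at -0.26 ± 0.083 and RRM1 at -0.26 ± 0.084 (adjusted p = 0.000373, 0.00400, 0.0148 and 0.0160). RRM2, the fifth, differed by -0.056 ± 0.11 (95% interval -0.28 to 0.17, adjusted p = 0.721). TK1 differed by -0.43 ± 0.14 (adjusted p = 0.0126). PPAT differed by -0.50 ± 0.10 and IMPDH1 by -0.40 ± 0.10 (adjusted p = 0.000386 and 0.00319), the largest differences below 0 in the purine routes. SAMHD1 differed by -0.24 ± 0.081 (adjusted p = 0.0200). For PAICS, which is paired head to head with PPAT, the difference was 0.0054 ± 0.096 (95% interval -0.19 to 0.20). Pyrimidine synthesis gave 0 calls among 5 genes, with differences from -0.15 to 0.14. The PRPS2 call was lost in 10 of 33 alternatives (adjusted p up to 0.0954), and the SAMHD1 call in 2, without MOLM14 ARM165 replicate 4 (0.0507) or OCI-AML2 ARM165 replicate 1 (0.0547).

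**Figure D4:**
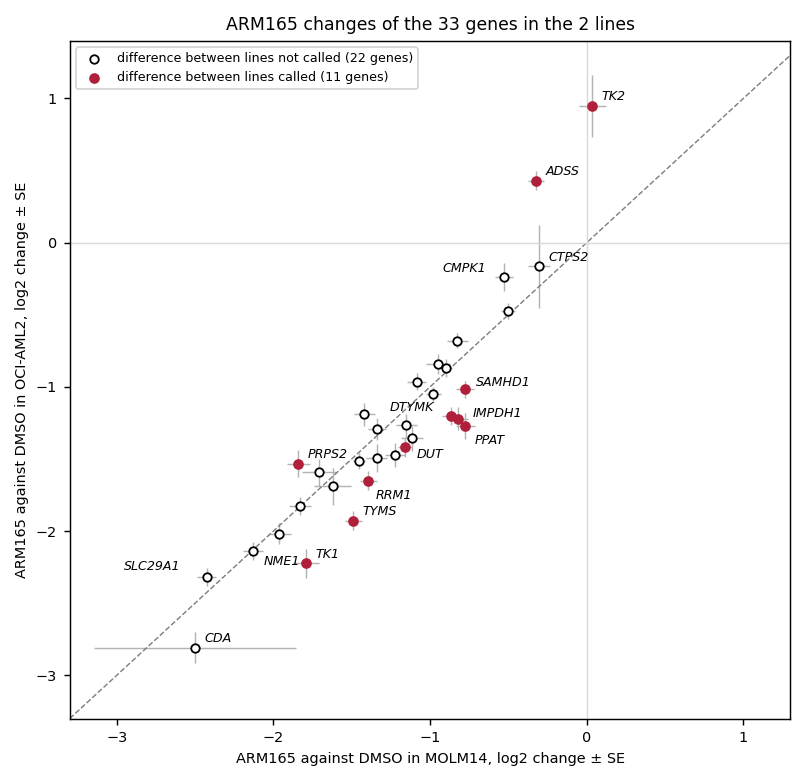
Log2 change with ARM165 against DMSO in MOLM14 (x axis) and OCI-AML2 (y axis), ± SE, for the 33 genes; filled points are the 11 whose change differed between the lines and the dashed line marks equal change. Most points lie near the line, and TK2 and ADSS lie farthest above it.

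Other genes of nucleotide metabolism were called in both directions, as were all genes. A list of 58 other genes of the field (degradation, other kinases, transporters, nucleotidases and regulators) had 51 tested in MOLM14, of which 16 rose, 24 fell and 11 did not pass (median change -0.19). In OCI-AML2, 53 were tested, of which 14 rose, 25 fell and 14 did not pass (median -0.41). These are 31.4% rises and 47.1% falls in MOLM14, where 35.5% of all genes rose and 34% fell, and 26.4% rises and 47.2% falls in OCI-AML2, where 34.2% rose and 31.6% fell. RRM2B, the ribonucleotide reductase subunit that p53 induces, went from 635 ± 44.9 with DMSO to 2612 ± 194 with ARM165 in MOLM14 and from 437 ± 39.0 with DMSO to 704 ± 90.2 with ARM165 in OCI-AML2 (SD, n = 4). It rose in both lines, against the fall of its paralog RRM2, with changes of 2.04 ± 0.080 in MOLM14 and 0.68 ± 0.11 in OCI-AML2 (adjusted p = 5.77e-12 and 4.71e-05) and a difference between the lines of -1.36 ± 0.14 (adjusted p = 2.31e-08). The catabolic enzymes UPP1, a uridine phosphorylase, and TYMP, the thymidine phosphorylase, rose in both lines. UPP1 was low without ARM165 and went from 21.9 ± 11.7 with DMSO to 425 ± 25.7 with ARM165 in MOLM14 and from 90.4 ± 16.3 with DMSO to 832 ± 94.1 with ARM165 in OCI-AML2 (SD, n = 4). UPP1 changed by 4.37 ± 0.37 in MOLM14 and 3.20 ± 0.22 in OCI-AML2 (adjusted p = 3.26e-08 and 2.63e-09), and TYMP by 1.02 ± 0.065 in MOLM14 and 1.98 ± 0.072 in OCI-AML2 (adjusted p = 1.21e-09 and 2.47e-12). SLC29A3, an intracellular nucleoside transporter, changed by 0.22 ± 0.083 in MOLM14 and 1.63 ± 0.087 in OCI-AML2 (adjusted p = 0.0257 and 1.78e-10), against the falls of SLC29A1 and of SLC29A2, the second surface transporter of the family (-1.92 ± 0.098 and -1.92 ± 0.080 in MOLM14 and OCI-AML2). LACC1 rose by 1.47 ± 0.12 and 2.11 ± 0.28 in the same order. Genes that fell in both lines included NME4, a mitochondrial paralog of NME1 (-1.88 ± 0.057 and -1.95 ± 0.096), and DCTPP1, a dCTP pyrophosphatase (-1.84 ± 0.063 and -1.73 ± 0.086). AMPD3, an AMP deaminase, differed most between the lines, at 0.22 ± 0.14 and -1.82 ± 0.11.

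Folate cofactors carry the carbon units that GART, ATIC and TYMS use. Of 16 genes of their supply, 2 rose, 8 fell and 6 did not pass in MOLM14, and 5 rose, 8 fell and 3 did not pass in OCI-AML2. The rises were 12.5% and 31.2% of the list, against 35.5% and 34.2% of all genes, and the falls were 50% in each line, against 34% and 31.6%. The folate carrier SLC19A1 changed by -1.76 ± 0.099 and -1.94 ± 0.11 in MOLM14 and OCI-AML2, the cytosolic enzymes MTHFD1 by -1.53 ± 0.043 and -1.65 ± 0.059 and SHMT1 by -1.14 ± 0.070 and -1.75 ± 0.070, and the hydrolase GGH by -0.96 ± 0.083 and -1.62 ± 0.088. The mitochondrial enzymes behaved otherwise in OCI-AML2. MTHFD2 changed by -0.10 ± 0.055 in MOLM14 and 0.49 ± 0.068 in OCI-AML2 (adjusted p = 0.115 and 1.01e-05), SHMT2 by -0.048 ± 0.049 in MOLM14 and 0.29 ± 0.059 in OCI-AML2 (adjusted p = 0.399 and 0.000541) and ALDH1L2 by 0.68 ± 0.047 in MOLM14 and 1.91 ± 0.073 in OCI-AML2 (adjusted p = 3.37e-09 and 4.18e-12), and all 3 differences between the lines were called (0.59 ± 0.089, 0.33 ± 0.076 and 1.22 ± 0.077).

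**Figure D5:**
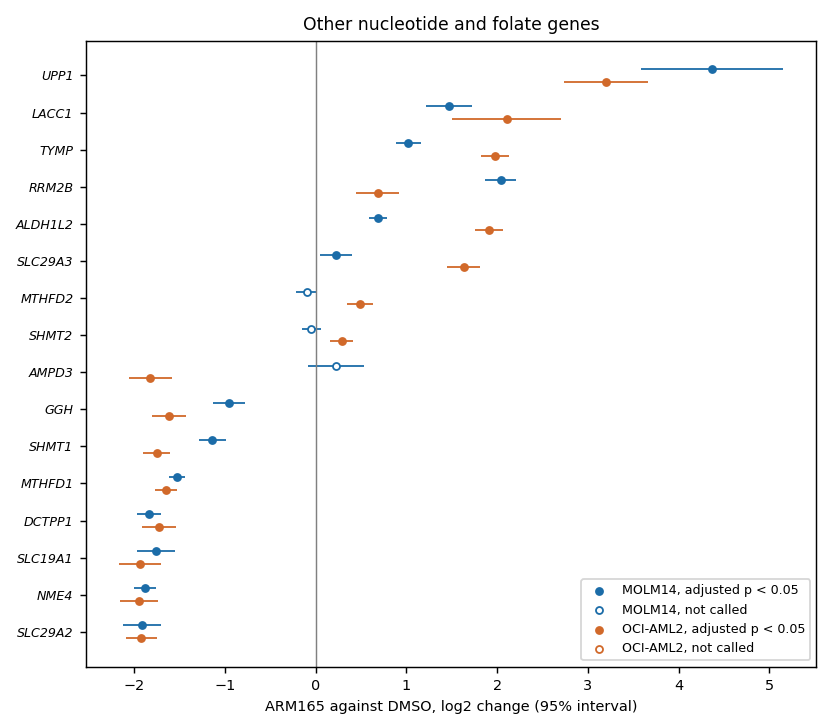
Log2 changes with ARM165 against DMSO (x axis, with 95% intervals from limma, 4 libraries a group) of the named genes of other nucleotide metabolism and folate cofactor supply (y axis) in MOLM14 (blue) and OCI-AML2 (orange); filled points were called. UPP1, RRM2B, TYMP and LACC1 lie above 0 in both lines, and SLC29A2 and SLC19A1 lie below 0 in both.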

How the data were processed

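Poly(A) RNA of the 24 libraries was quantified with kallisto, per the submitters' processing notes; its version, the annotation, the genome build, the summing to genes and the scaling are not given in the sources used here. Libraries were stranded, per the labels' protocols. The deposited signal values, 1 table per line, are normalized estimated reads made by the authors; they have fractions, and whole reads could not be recovered (15.1 to 15.9% of values came out whole), so no count model was run. Estimated reads per library ran from 35.4 M to 59.0 M, and 18889 to 19699 symbols had a value above 0. These depths are approximate: the commonest small value of a library was taken as 1 read and the deposited total divided by it. Groups were read from the sample titles, and 0 columns were left out.

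Genes reaching 10 in 4 or more libraries of a line were tested on log2(value + 1) with limma 3.58.1 (R 4.3.3), with its variance trend, in 1 fit of the 12 libraries of a line. Differences between lines used all 24 libraries together and the 14287 genes kept in both. A fold change on this scale understates the change of low genes. P-values were adjusted by Benjamini-Hochberg over all genes tested and called under 0.05; intervals are unadjusted 95% intervals. The fit was tested on simulated data in which few genes were changed. That test does not cover shifts as broad as those with ARM165. The members and lists were chosen with earlier results of these data known. Values per library are given, by role, for the 2 called members with the largest mean ARM165 change over the lines, for members called in opposite directions or called higher, and for listed pairs of paralogs or partner subunits (RRM1 with RRM2); from the other lists, RRM2B and up to 6 rises and 6 falls per line with a group mean of at least 50 could be named, and MTHFD2, SHMT2, AMPD3 and SLC29A3 fall under this rule in OCI-AML2 only; some genes of these lists are counted but not reported here by name. The neighbours MOB1B, ENOSF1 and NME1-NME2 were named for sharing positions with members. Of the symbols, 35403 of 35587 (99.5%) are in GENCODE 29. ADSS is listed in RefSeq under a newer symbol. Alternatives were other pseudocounts, filters and scalings, a replicate block, no variance trend, fewer groups and leaving out each library. Plots used matplotlib 3.10.9 (Python 3.11.15).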

Additional observations from a re-analysis of the deposited data

Results flagged for a closer look

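In 7 of 198 groups of 4 libraries (33 genes in 6 groups), 1 library stood far from the other 3; chance alone flags about 1 in 20 groups. PRPS1 was at 1126 in MOLM14 ARM165 replicate 1, with the next library at 1324. PRPS2 was at 817 in OCI-AML2 ARM165 replicate 4, with the next at 654. ATIC was at 4869.9 in MOLM14 AZ2 replicate 2, with the next at 5499. ADSS was at 3922 in MOLM14 AZ2 replicate 1, with the next at 3697. CMPK1 was at 2670.1 in MOLM14 ARM165 replicate 4, with the next at 2347. RRM2 was at 1571 in MOLM14 ARM165 replicate 3, with the next at 1247. SAMHD1 was at 3205 in OCI-AML2 DMSO replicate 2, with the next at 3031.

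For 11 members the ARM165 change differed between the lines by limma (OCI-AML2 minus MOLM14, log2 scale). The difference was 0.91 for TK2, 0.75 for ADSS and 0.31 for PRPS2. It was -0.50 for PPAT, -0.44 for TYMS, -0.43 for TK1, -0.40 for IMPDH1, -0.34 for DTYMK, -0.26 for DUT, -0.26 for RRM1 and -0.24 for SAMHD1.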

How the results depend on the processing

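Each comparison was refitted under 21 alternatives within a line and 33 between lines. No called change of a member or list gene reversed, and every count of members called stayed within 1.5 times its main value. Member medians near 0 took both signs, with shifts smaller than their median standard error. They ran from -0.11 to 0.028 for the ARM165 difference between lines. For AZ2 against DMSO they ran from -0.0077 to 0.021 in MOLM14 and from -0.061 to 0.0047 in OCI-AML2. With ARM165 against DMSO, 31 to 32 members were lower in MOLM14 and 29 to 30 in OCI-AML2 over all alternatives, and 0 were higher in MOLM14 and 2 in OCI-AML2. Between the lines, 2 to 4 members were above 0 and 7 to 11 below 0. Same-numbered libraries correlated only weakly across treatments, from -0.026 to 0.056 in MOLM14 and from -0.037 to 0.047 in OCI-AML2. In MOLM14, 7 of 12 libraries correlated best with their own number, and in OCI-AML2 2 of 12 did. A weak pairing by number is therefore possible in MOLM14, and the labels do not settle it. Entered as a block, the replicate numbers ended the CMPK1 call in OCI-AML2 (limma, adjusted p = 0.0563). Equal medians or quantile normalization moved the OCI-AML2 median of the members from -1.29 to -1.40 or -1.38 against DMSO, and equal medians to -1.42 against AZ2; they moved the median of all genes by up to -0.12. The counts of all genes called with AZ2 are small and moved: 0 to 3 lower in MOLM14, 5 to 16 lower and 1 to 5 higher in OCI-AML2, and 0 to 7 lower and 0 to 2 higher for the difference between lines, where leaving out 1 library gave 0 to 3, 8 to 16, 1 to 2, 0 to 7 and 0 to 1. With 5 added to each value, CDA differed between the lines by -1.23 (adjusted p = 0.00636). At 4 libraries a group, the spread between libraries limits which AZ2 differences could pass; CDA in MOLM14 and CTPS2 in OCI-AML2 have low values, and the part of depth in them was not tested.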
